A study of Homo sapiens with 8 samples.

Results

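The genes described here are 51 components of the machinery that carries a cell through mitosis. They were chosen by name, with earlier results of these data known. How many of them rose or fell is therefore not independent of the choice. The Ensembl identifiers in the count files were matched to gene symbols, and all 51 were found among the 20453 identifiers of each library. They comprise 8 genes of mitotic entry, 7 of the spindle checkpoint and anaphase onset, 11 of the centromere and kinetochore, 3 of the chromosomal passenger complex, 8 spindle motors and pole proteins, 8 of the central spindle and cytokinesis, and 6 of mitotic chromosome structure. RNA-seq (mRNA) and ribosome profiling, which counts the pieces of mRNA that lie inside ribosomes and so escape nuclease digestion (footprints), were compared between 2 genotypes. The groups were cells transduced with a DNMT3A mutant and cells transduced with wild-type DNMT3A, with 2 libraries of each assay per genotype. DNMT3A, an enzyme that lays down new DNA methylation, is often mutated in acute myeloid leukaemia. The sources used here give neither the vector and its promoter nor the state of the cells' own DNMT3A copies, and they do not say whether the 2 replicates were separate cultures, so p-values measure only how far these libraries differ, possibly for technical reasons.

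The labels call the cells THP-1, a monocytic leukaemia line. Of 16 monocyte and macrophage markers, 9 had no mRNA count in any library (S100A8, S100A9, S100A12, FCN1, CSF1R, CD163, IRF8, MPO and ELANE) and 4 reached 10 CPM (counts scaled to a common library size) in all 4 mRNA libraries (LYZ, SPI1, CD68 and CD33). By contrast, that level was reached in all 4 by 16 of 16 markers of erythroid cells and megakaryocytes, which goes against the labelled cell type. The summed mRNA level of the erythroid and megakaryocyte markers was 3152 and 3202 CPM in mutant libraries and 3647 and 3680 CPM in wild-type libraries, and that of the monocyte and macrophage markers was 166 and 172 CPM in mutant libraries and 165 and 171 CPM in wild-type libraries; their part in the results was not tested. DNMT3A mRNA itself was lower in mutant libraries, at 241 and 244 CPM, than in wild-type libraries, at 291 and 294 CPM, while its footprints overlapped, at 143 and 148 CPM in mutant libraries and 137 and 153 CPM in wild-type libraries (edgeR adjusted p = 0.99); the counts pool the introduced copy with the cells' own gene. Total counts were 4393445 and 3901659 in mutant mRNA, 3415999 and 4523475 in wild-type mRNA, 944824 and 603360 in mutant footprint, and 1611724 and 1988513 in wild-type footprint libraries. The 2 footprint replicates of a genotype differed by no more than counting noise (chi-square per degree of freedom 0.925 in the mutant and 1.01 in the wild type), so their agreement may not measure the spread between cultures.

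Entry into mitosis is driven by cyclin-dependent kinase 1 (CDK1) bound to A and B cyclins, and by the Polo and Aurora kinases. Kinetochores assemble on centromeres, bind spindle microtubules, and send a checkpoint signal that holds back anaphase until every chromosome is attached. The chromosomal passenger complex corrects wrong attachments and later moves to the central spindle, where cytokinesis is organised. Most genes of this machinery are transcribed in a burst late in the cell cycle, and the MuvB complexes DREAM and MMB act on many of them through a promoter element called the cell cycle genes homology region (CHR), often beside CCAAT boxes bound by NF-Y.

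The promoters of the members are shown first because the members were chosen by name and not by promoter letters. Many genes of this machinery are known to carry the element, as described above. Its frequency among the members is therefore not independent of the choice. RefSeq promoter entries (GRCh38.p14) were matched for 43 of the 51 members, with 55 entries in all. The letters searched were TTTGAA or TTTAAA for the CHR and CCAAT for the CCAAT box, on both strands. In MKI67 a match of each kind shares bases. The lines below give the 110 bases before the RefSeq start, written 5′ to 3′ on the gene's own strand, with matches to either motif in capitals (TTCAAA and ATTGG are the same letters on the other strand). The first 3 genes had higher mRNA in the mutant, PLK1 and INCENP lower mRNA, and KIF20A and PRC1 no called difference. CCNA2 and SPC24 turn up again below for their footprints and have no match to the CHR letters searched in this window. Other spellings of the element were not searched, so a missing match does not show that the element is absent.
CCNB1 (chr5:69167040-69167149, plus strand): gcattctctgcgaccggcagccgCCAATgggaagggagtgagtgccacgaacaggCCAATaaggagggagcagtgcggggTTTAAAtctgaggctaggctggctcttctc
CCNB2 (chr15:59105036-59105145, plus strand): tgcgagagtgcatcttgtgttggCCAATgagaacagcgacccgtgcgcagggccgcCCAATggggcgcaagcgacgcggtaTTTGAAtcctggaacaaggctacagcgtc
ASPM (chr1:197146670-197146779, minus strand): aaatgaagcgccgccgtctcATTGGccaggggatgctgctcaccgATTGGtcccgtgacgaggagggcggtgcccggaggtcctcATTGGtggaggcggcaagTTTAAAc
PLK1 (chr16:23678779-23678888, plus strand): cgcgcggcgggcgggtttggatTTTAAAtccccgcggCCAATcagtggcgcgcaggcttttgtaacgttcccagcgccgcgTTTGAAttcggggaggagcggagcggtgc
INCENP (chr11:62123901-62124010, plus strand): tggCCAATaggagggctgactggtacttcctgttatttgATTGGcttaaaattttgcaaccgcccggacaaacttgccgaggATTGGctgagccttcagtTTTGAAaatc
KIF20A (chr5:138179002-138179111, plus strand): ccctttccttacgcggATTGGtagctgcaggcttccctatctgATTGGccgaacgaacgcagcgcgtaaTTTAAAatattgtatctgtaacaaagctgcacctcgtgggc
PRC1 (chr15:90994536-90994645, minus strand): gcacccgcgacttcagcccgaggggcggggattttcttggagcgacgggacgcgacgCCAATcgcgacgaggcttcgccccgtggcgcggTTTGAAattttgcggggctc
CCNA2 (chr4:121823884-121823993, minus strand): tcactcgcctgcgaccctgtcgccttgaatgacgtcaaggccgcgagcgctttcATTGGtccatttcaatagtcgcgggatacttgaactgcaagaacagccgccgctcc
SPC24 (chr19:11155783-11155892, minus strand): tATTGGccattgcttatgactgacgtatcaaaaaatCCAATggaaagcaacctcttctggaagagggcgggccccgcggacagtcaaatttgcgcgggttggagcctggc

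CHR letters lay within 100 bases before the start in 21 of the 55 member entries (38.2%), compared with 8.24% of all 35116 promoters in the RefSeq table and 4.98% of the promoters of genes tested in mRNA. CCAAT boxes were found in 29 member entries (52.7%), compared with 18.1% of all promoters and 20.7% of those of tested genes. Both kinds of match occurred in 15 member entries (27.3%), 1.59% of all promoters and 1.28% of those of tested genes. In CCNB1, CCNB2 and KIF20A a pair of CCAAT boxes stands ahead of the CHR letters. Paired CCAAT boxes 25 to 36 bases apart were present within 250 bases in 12 member entries (21.8%) and in 2.75% of all promoters. Members of every mRNA outcome held the letters: 8 of 28 members with higher mRNA had both kinds of match, as did 2 of 4 with lower mRNA and 5 of 11 not called. These matches are letters in a window and were not tested as binding sites.

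**Figure D1:**
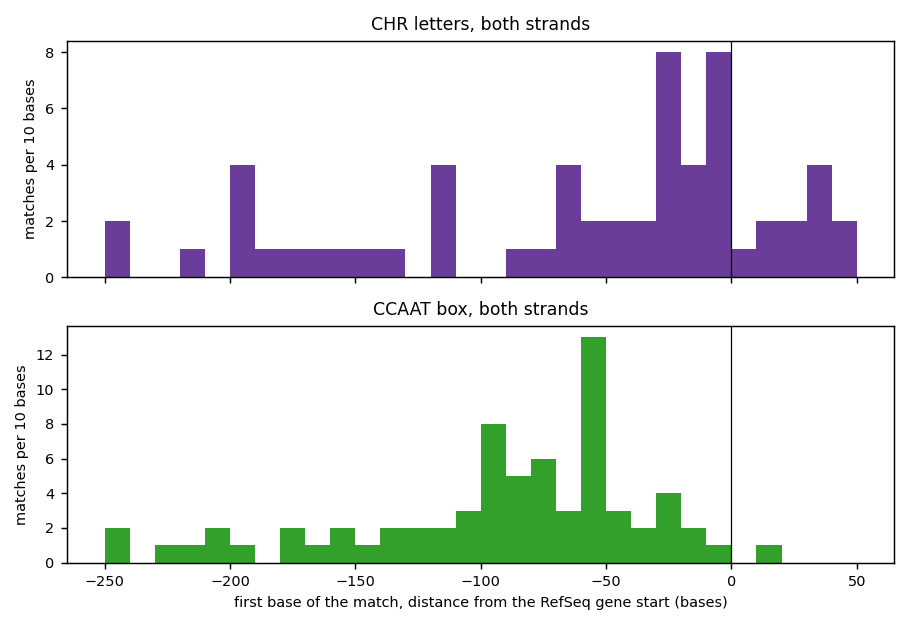
Positions of CHR letters (top, purple) and CCAAT boxes (bottom, green) in the 55 promoter entries of the members, counted per 10 bases on both strands; the x axis is the distance in bases of the first base of a match from the RefSeq start, which the vertical line marks at 0. CHR letters gather close before the start, and CCAAT boxes lie mostly within 100 bases before it.

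In mRNA, most of the machinery was higher in mutant cells. Of 50 members tested, 34 rose and 4 fell (CDC25B, PLK1, AURKB and INCENP), while 12 did not pass the test; over all 10756 genes tested, 18.9% rose and 18.9% fell. The test throughout was edgeR's quasi-likelihood test, with p adjusted by Benjamini-Hochberg over all genes tested and called at an adjusted p under 0.05, and fold changes are mutant over wild type. The median log2 fold change of the members was 0.29, and that of all genes was -0.002. Both mutant libraries lay above both wild-type libraries for 37 members, against a background of 34.0% of all genes tested. In bulk libraries, more cells in mitosis and more RNA per cell cannot be told apart. UBE2C, the ubiquitin-conjugating enzyme of the anaphase-promoting complex (APC/C), was not tested, with 1.12 and 0.764 CPM in mutant mRNA and 0.59 and 0.895 CPM in wild-type mRNA, near the 0.663 to 0.878 CPM that 3 counts stand for in these libraries.

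Footprints moved the same way but with fewer calls: 10 members rose (CDK1, CCNA2, TTK, CENPE, CENPF, NUF2, SPC25, KIF20B, SMC2 and NCAPG), 5 fell (PLK1, SPC24, AURKB, BIRC5 and INCENP), and 35 did not pass. Over all 9181 genes tested in footprints, 10.3% rose and 10.9% fell, so the share of members that rose was above that of all genes and the share that fell was near it. The median member log2 fold change was 0.17. Both mutant libraries lay above both wild-type libraries for 26 members, against 29.5% of all genes. The number of footprint calls moved with single libraries: without mutant footprint replicate 1, 2 members rose and 0 fell, without mutant replicate 2 these were 5 and 3, and without wild-type replicate 2 they were 8 and 2. Calls over all genes dropped as well, to 101 higher and 173 lower, 431 and 519, and 495 and 660 in the same order, against 945 and 1005 with all libraries. CDK1 and CCNA2 were the only footprint calls kept with each of the 4 libraries left out. In the footprint libraries 3 counts stand for 1.51 to 4.97 CPM.

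**Figure D2:**
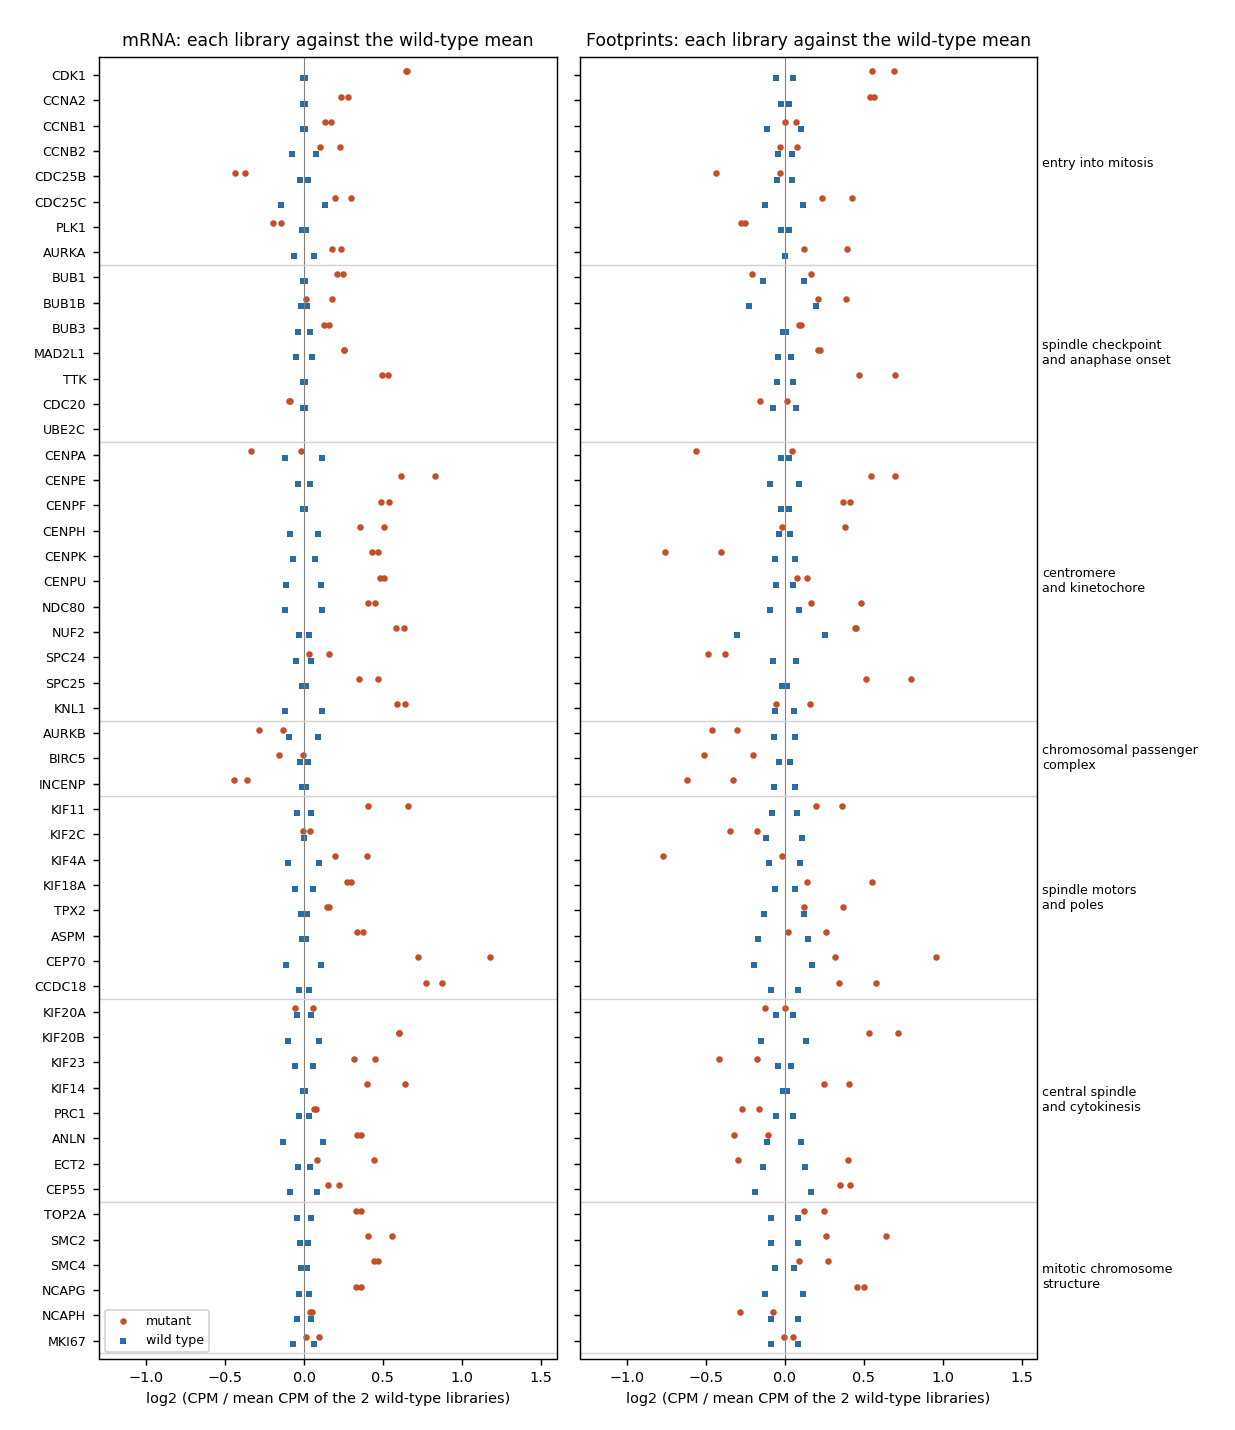
Each library's level of the 50 tested members, as log2 of its CPM over the mean CPM of the 2 wild-type libraries, for mRNA (left) and footprints (right); orange circles are mutant libraries, blue squares are wild-type libraries, and grey lines separate the roles named at the right. Orange circles lie to the right of the squares for most members in mRNA, and to the left for the 3 chromosomal passenger genes in footprints.

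Among genes of mitotic entry, 5 of 8 rose in mRNA (CDK1, CCNA2, CCNB1, CCNB2 and AURKA) and 2 fell. CDK1 (ENSG00000170312, GRCh38 chromosome 10, 60778331 to 60794852) had 215 and 216 CPM of mRNA in mutant libraries and 137 and 138 CPM in wild-type libraries. Its footprints were 419.7 and 381 CPM in mutant libraries and 269.6 and 249 CPM in wild-type libraries. The kinase thus stood apart between genotypes in both assays, with no overlap, by a log2 fold change of 0.65 in mRNA (SE 0.063, edgeR adjusted p = 1.9e-22) and 0.64 in footprints (SE 0.079, edgeR adjusted p = 5.3e-11). CCNA2 (chromosome 4, 121816444 to 121823883), the cyclin of S phase and early mitosis, had mRNA at 227 and 220.2 CPM in mutant libraries and 186 and 188 CPM in wild-type libraries. Its footprints were further apart, at 304 and 309.6 CPM in mutant libraries and 213 and 205 CPM in wild-type libraries. CCNA2 rose by a log2 fold change of 0.26 in mRNA (SE 0.059, edgeR adjusted p = 0.00011) and 0.55 in footprints (SE 0.087, edgeR adjusted p = 2.2e-07). The B cyclins, which bind CDK1 at entry, differed less: CCNB1 and CCNB2 rose by 0.15 and 0.18 in mRNA, and their footprint groups overlapped. The CCNB1 and AURKA mRNA calls were lost with any 1 mRNA library left out (edgeR adjusted p = 0.066 to 0.19 for CCNB1 and 0.055 to 0.39 for AURKA), and the CCNB2 call without wild-type replicate 2 (0.51) or mutant replicate 1 (0.37).

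The members of this role that fell are activators of entry. CDC25B, a phosphatase that starts CDK1 activation, had 69.4 and 72.5 CPM of mRNA in mutant libraries and 92.1 and 95.6 CPM in wild-type libraries (log2 fold change -0.41, SE 0.085, edgeR adjusted p = 2e-05). Its footprint groups overlapped, at 60.3 and 79.8 CPM in mutant libraries and 78.7 and 84.2 CPM in wild-type libraries (log2 fold change -0.27, edgeR adjusted p = 0.23). PLK1, the Polo-like kinase of centrosome maturation and spindle assembly, had mRNA at 260.5 and 269 CPM in mutant libraries and 296 and 301 CPM in wild-type libraries. PLK1 footprints were 268 and 272 CPM in mutant libraries and 319 and 331 CPM in wild-type libraries. Neither assay's groups overlapped for PLK1, which fell by 0.17 in mRNA (SE 0.052, edgeR adjusted p = 0.0039) and by 0.27 in footprints (SE 0.083, edgeR adjusted p = 0.011), both on the log2 scale. PLK1 mRNA missed the threshold when wild-type mRNA replicate 2 was left out (edgeR adjusted p = 0.12), and its footprints without mutant footprint replicate 1 (0.24), mutant replicate 2 (0.081) or wild-type replicate 2 (0.065). CDC25C, the related phosphatase, did not pass in either assay.

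Of the 6 spindle checkpoint and anaphase genes tested, 4 rose in mRNA (BUB1, BUB3, MAD2L1 and TTK) and 0 fell, with CDC20 and BUB1B not called. BUB1, a kinase that recruits checkpoint proteins to kinetochores, had 279.8 and 273 CPM of mRNA in mutant libraries and 238 and 235 CPM in wild-type libraries (log2 fold change 0.23, SE 0.054, edgeR adjusted p = 0.00019). BUB1 footprints overlapped, at 327 and 253 CPM in mutant libraries and 317 and 265 CPM in wild-type libraries, with a log2 fold change of 0.04 and an interval of -0.13 to 0.21. TTK, the MPS1 kinase that starts the checkpoint signal, was the checkpoint member that also rose in footprints, by 0.62 on the log2 scale (SE 0.16, edgeR adjusted p = 0.003), beside 0.51 in mRNA; the footprint call was lost without mutant footprint replicate 1 (edgeR adjusted p = 0.26). CDC20, the activator of the APC/C, had log2 fold changes of -0.09 in mRNA and -0.08 in footprints, neither called. The MAD2L1 mRNA call was lost without wild-type replicate 2 (0.17), and that of BUB3 without wild-type replicate 1 (0.074) or 2 (0.35) or mutant replicate 1 (0.14).

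Of the 11 centromere and kinetochore genes, 9 rose in mRNA and 0 fell, with a median log2 fold change of 0.46. CENPE, a kinesin that carries chromosomes to the spindle equator, had 157 and 136 CPM of mRNA in mutant libraries and 86.5 and 91.1 CPM in wild-type libraries. Its footprints were 89.3 and 99.4 CPM in mutant libraries and 57.3 and 65.2 CPM in wild-type libraries. CENPE thus rose by a log2 fold change of 0.72 in mRNA (SE 0.074, edgeR adjusted p = 3e-20) and 0.60 in footprints (SE 0.15, edgeR adjusted p = 0.0016). CENPF, a large protein of the outer kinetochore, had mRNA at 343 and 331 CPM in mutant libraries and 237 and 235 CPM in wild-type libraries (log2 fold change 0.52, SE 0.052, edgeR adjusted p = 2.1e-20). Its footprints rose too, with 207 and 200.4 CPM in mutant libraries and 158 and 152 CPM in wild-type libraries (log2 fold change 0.40, SE 0.1, edgeR adjusted p = 0.0019). Without mutant footprint replicate 1 both footprint calls were lost (edgeR adjusted p = 0.075 for CENPE and 0.16 for CENPF), and that of CENPE also without mutant replicate 2 (0.066).

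KNL1 and CENPU rose in mRNA with no called difference in footprints. KNL1, the scaffold on which BUB1 gathers, had 81.1 and 78.4 CPM of mRNA in mutant libraries and 56.4 and 47.9 CPM in wild-type libraries (log2 fold change 0.63, SE 0.096, edgeR adjusted p = 1.6e-09). KNL1 footprints overlapped at 32.2 and 37.5 CPM in mutant libraries and 32.1 and 34.9 CPM in wild-type libraries, with an interval of -0.42 to 0.47 for the log2 fold change. CENPU, of the inner kinetochore network on centromeric chromatin, had mRNA at 129 and 126 CPM in mutant libraries and 83.8 and 97.8 CPM in wild-type libraries (log2 fold change 0.48, SE 0.076, edgeR adjusted p = 6.1e-09). CENPU footprints were 96.6 and 101 CPM in mutant libraries and 95.1 and 88.3 CPM in wild-type libraries (log2 fold change 0.11, interval -0.16 to 0.38). CENPA, the histone H3 variant that marks centromeres, was not called in either assay.

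The NDC80 complex, the main microtubule coupler of the kinetochore, has 4 subunits, which differed in what was called. NDC80 and NUF2 form one end of the rod and SPC24 and SPC25 the other. In mRNA, NDC80, NUF2 and SPC25 rose by 0.45, 0.60 and 0.41 on the log2 scale, while SPC24 had a log2 fold change of 0.09 and was not called. SPC25 (chromosome 2, 168861521 to 168890430) had 84.2 and 77.4 CPM of mRNA in mutant libraries and 60.2 and 61.3 CPM in wild-type libraries. SPC25 footprints were 169 and 138 CPM in mutant libraries and 98.3 and 96 CPM in wild-type libraries, a rise of 0.70 on the log2 scale (SE 0.12, edgeR adjusted p = 2.9e-06). SPC24 (ENSG00000161888, chromosome 19, 11145493 to 11155782), its direct partner, had 118 and 108 CPM of mRNA in mutant libraries and 102 and 109 CPM in wild-type libraries, so the groups overlapped. Its footprints did not overlap and were lower, at 99.7 and 108 CPM in mutant libraries and 132 and 147 CPM in wild-type libraries (log2 fold change -0.45, SE 0.12, edgeR adjusted p = 0.0048). Both calls were lost without mutant footprint replicate 1 (edgeR adjusted p = 0.1 for SPC25 and 0.25 for SPC24), and that of SPC24 also without wild-type footprint replicate 2 (0.074). The mRNA call of NDC80 was lost without wild-type mRNA replicate 2 (0.058), and the footprint call of NUF2 without wild-type replicate 1 (0.46) or mutant replicate 1 (0.41) or 2 (0.23).

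The chromosomal passenger genes went against the majority. None of the 3 rose in either assay; AURKB and INCENP fell in mRNA, and all of AURKB, BIRC5 and INCENP fell in footprints, where 10.9% of all genes did. INCENP (chromosome 11, 62124011 to 62153169), the scaffold that binds and activates Aurora B, had 78.8 and 74.6 CPM of mRNA in mutant libraries and 101 and 102 CPM in wild-type libraries. INCENP footprints were 51.9 and 63.5 CPM in mutant libraries and 76.2 and 83.7 CPM in wild-type libraries. The log2 fold changes of INCENP were -0.40 in mRNA (SE 0.082, edgeR adjusted p = 1.2e-05) and -0.51 in footprints (SE 0.16, edgeR adjusted p = 0.017). AURKB, the Aurora B kinase, had mRNA at 84.7 and 94.2 CPM in mutant libraries and 109.8 and 96.9 CPM in wild-type libraries. AURKB footprints were 128 and 114 CPM in mutant libraries and 149.9 and 165 CPM in wild-type libraries. Neither assay's groups overlapped for AURKB, with log2 fold changes of -0.20 in mRNA (SE 0.08, edgeR adjusted p = 0.033) and -0.37 in footprints (SE 0.12, edgeR adjusted p = 0.014).

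BIRC5 (ENSG00000089685, chromosome 17, 78214253 to 78225635) encodes survivin, the subunit that reads a histone mark at centromeres. Its mRNA groups overlapped, at 155 and 140.0 CPM in mutant libraries and 159 and 153 CPM in wild-type libraries. BIRC5 footprints were lower, at 299 and 372 CPM in mutant libraries and 417 and 438 CPM in wild-type libraries (log2 fold change -0.38, SE 0.077, edgeR adjusted p = 6.3e-05). CDCA8 (borealin), the other structural subunit, is no member and came from a list of further spindle genes; its footprints were 139 and 137 CPM in mutant libraries and 96.4 and 97.0 CPM in wild-type libraries, a rise of 0.52 on the log2 scale (SE 0.12, edgeR adjusted p = 0.00086). With all libraries in the fit, 3 subunits of the complex were thus called lower in footprints and 1 higher. CDCA8 also rose in footprints per mRNA (log2 difference 0.54, SE 0.15, edgeR adjusted p = 0.022). Of the 20 genes tested in that list, 1 rose and 1 fell in footprints per mRNA, where 1.78% and 2.37% of all genes did. The gene that fell was HMMR (log2 difference -0.64, SE 0.17, edgeR adjusted p = 0.014). How the CDCA8 calls fare with a library left out is not given here. All 3 member calls in footprints were lost without mutant footprint replicate 1 (edgeR adjusted p = 0.14 for AURKB, 0.29 for BIRC5 and 0.43 for INCENP). Without wild-type footprint replicate 2 those of AURKB (0.13) and INCENP (0.12) were lost, and without mutant footprint replicate 2 that of AURKB (0.17). In mRNA the AURKB call was lost without mutant replicate 1 (0.37) or wild-type replicate 1 (0.4).

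Spindle motors and pole proteins rose in mRNA for 7 of 8 members, where 18.9% of all genes did. None of the 8 was called in footprints, where 10.3% of all genes rose. Their median log2 fold change was nevertheless similar in both assays, at 0.32 in mRNA and 0.30 in footprints. Gene by gene, the median log2 difference in footprints per mRNA was -0.23. It was positive for 2 of the 8, and 0 of the 8 were called. Both mutant footprint libraries lay above both wild-type libraries for 5 of the 8 and below for 1, and 2 overlapped. CEP70 (chromosome 3, 138494344 to 138594260), a centrosomal protein, had 51.2 and 37.4 CPM of mRNA in mutant libraries and 21 and 24.4 CPM in wild-type libraries, the largest mRNA log2 fold change among the members at 0.96 (SE 0.13, edgeR adjusted p = 2.5e-11). CEP70 footprints did not overlap, at 22.9 and 14.7 CPM in mutant libraries and 13.2 and 10.3 CPM in wild-type libraries. They missed the threshold (log2 fold change 0.76, SE 0.32, edgeR adjusted p = 0.081). These values came from 22 and 9 counts in mutant libraries and 21 and 20 counts in wild-type libraries. KIF11, the motor that slides spindle poles apart, had mRNA at 96.1 and 80.4 CPM in mutant libraries and 59 and 62.7 CPM in wild-type libraries (log2 fold change 0.54, SE 0.09, edgeR adjusted p = 4.7e-08). ASPM, which focuses spindle poles, had mRNA at 212 and 206 CPM in mutant libraries and 165 and 162 CPM in wild-type libraries. It rose by 0.36 on the log2 scale in mRNA (SE 0.061, edgeR adjusted p = 1e-07), beside a footprint log2 fold change of 0.13 with overlapping groups. KIF2C, a kinesin that takes microtubules apart at centromeres, was the motor not called in mRNA, with 201 and 194 CPM in mutant libraries and 195 and 196 CPM in wild-type libraries (log2 fold change 0.02, interval -0.10 to 0.13). KIF4A shares nearly all its sequence with the retrocopy KIF4B, so its reads may have been split between them. The mRNA calls of TPX2 were lost with any 1 library left out (0.063 to 0.22), those of KIF4A without wild-type replicate 1 (0.23) or mutant replicate 1 (0.34), and those of KIF18A without wild-type replicate 2 (0.21) or mutant replicate 1 (0.082).

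In the central spindle and cytokinesis group, 5 of 8 rose in mRNA (KIF20B, KIF23, KIF14, ANLN and ECT2), 0 fell, and KIF20B alone was called in footprints. KIF20B, a kinesin of late cytokinesis, had 109 and 109 CPM of mRNA in mutant libraries and 76.7 and 66.9 CPM in wild-type libraries. Its footprints were 98.7 and 112 CPM in mutant libraries and 74.9 and 61.6 CPM in wild-type libraries. The groups of KIF20B were apart by nearly equal amounts in both assays, with log2 fold changes of 0.61 (SE 0.083, edgeR adjusted p = 7.1e-12) and 0.62 (SE 0.14, edgeR adjusted p = 0.0006); the footprint call was lost without mutant replicate 1 (0.06) or 2 (0.063). KIF14, which works with the midzone bundler PRC1, had mRNA at 127 and 107 CPM in mutant libraries and 81.7 and 81.2 CPM in wild-type libraries (log2 fold change 0.53, SE 0.079, edgeR adjusted p = 6.1e-10). PRC1 itself was not called, with 156 and 154 CPM of mRNA in mutant libraries and 151 and 145 CPM in wild-type libraries (log2 fold change 0.07, interval -0.06 to 0.20). KIF20A, the motor that brings Aurora B to the midzone, had overlapping groups in both assays. The mRNA calls of KIF23 and ECT2 were lost without wild-type replicate 2 (0.12 and 0.15) or mutant replicate 1 (0.099 and 0.63), and that of ANLN without wild-type replicate 1 (0.067).

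Of 6 chromosome structure genes 4 rose in mRNA, and both condensin ATPase subunits were among them. TOP2A, the topoisomerase that untangles sister chromatids, had 488 and 479 CPM of mRNA in mutant libraries and 392 and 368 CPM in wild-type libraries (log2 fold change 0.35, SE 0.046, edgeR adjusted p = 2.1e-12). SMC4, one condensin ATPase, had mRNA at 199 and 196 CPM in mutant libraries and 143 and 146 CPM in wild-type libraries (log2 fold change 0.45, SE 0.063, edgeR adjusted p = 3.3e-11). NCAPG, a subunit of condensin I, rose in both assays, with footprints at 152 and 156 CPM in mutant libraries and 119.7 and 101 CPM in wild-type libraries (log2 fold change 0.49, SE 0.12, edgeR adjusted p = 0.0011), beside an mRNA log2 fold change of 0.34. The NCAPG footprint call was lost without mutant replicate 1 (0.12) or 2 (0.056) or wild-type replicate 2 (0.061), and that of SMC2 without mutant replicate 1 (0.063) or 2 (0.32) or wild-type replicate 2 (0.15). NCAPH, from the same complex, was not called in either assay. MKI67, the proliferation marker Ki-67 that coats mitotic chromosomes, had log2 fold changes of 0.05 in mRNA and 0.02 in footprints, neither called, with overlapping groups in both.

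Footprint changes had the sign of mRNA changes for most members. The log2 fold changes of the 2 assays had the same sign for 42 of the 50 members. Among all 9166 genes tested in both assays, 6415 had the same sign. The signed footprint value lay below the mRNA value for 36 members and for 4520 of the 9166 genes. Those 36 include members that fell further in footprints, such as INCENP and AURKB. The median of the footprint minus the mRNA log2 fold change was -0.11 over the members and 0.005 over all these genes. Pearson's r was 0.683 and Spearman's rho 0.673 across these 50 genes. Across all 9166 genes tested in both assays they were 0.482 and 0.514. The 2 sets of genes were not matched for read counts, and the part of count depth in this difference was not tested. Genes are not independent replicates, and the 2 assays share no library.

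**Figure D3:**
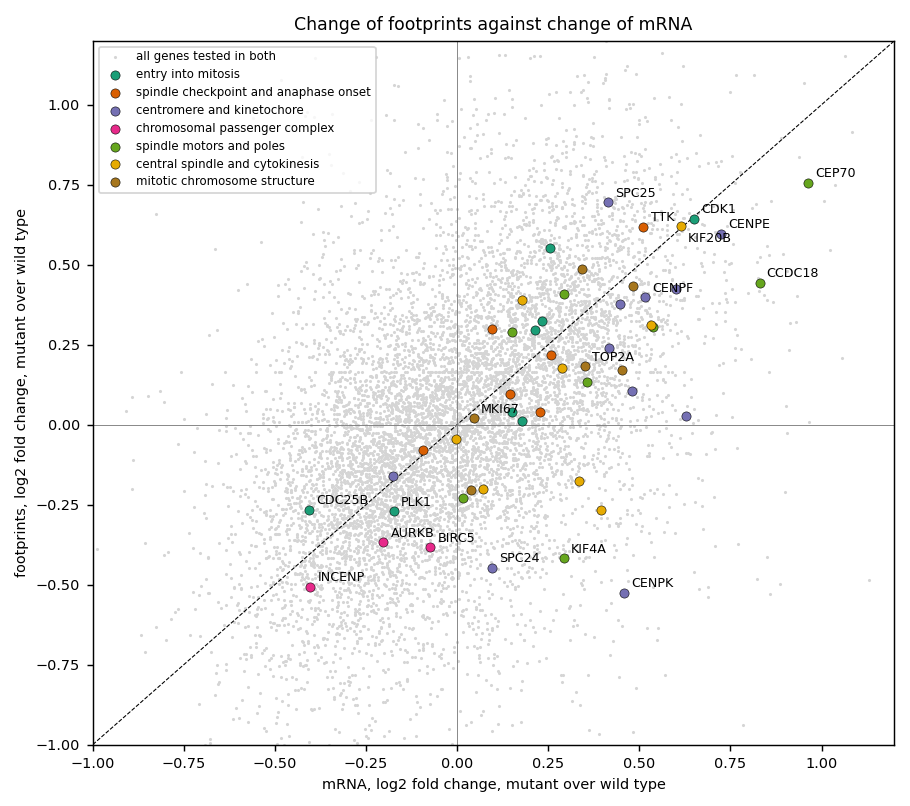
Log2 fold change, mutant over wild type, in mRNA (x axis) and in footprints (y axis); coloured points are the 50 tested members by role, grey points are all genes tested in both assays that fall within the axes, and the dashed line marks equal change. Most members lie right of 0 and below the dashed line, CENPK and SPC24 lie in the lower right, and the passenger genes lie in the lower left.

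For footprints per mRNA, a genotype-by-assay interaction was fitted over all 8 libraries. Among 50 members 0 rose and 2 fell, CENPK and SPC24, where over all 9166 genes tested 1.78% rose and 2.37% fell; 2 of 50 is near that background. The median member log2 difference was -0.11, with 0.004 over all genes. CENPK (ENSG00000123219, chromosome 5, 65495624 to 65563168), of the inner kinetochore network, had higher mRNA, at 43.6 and 42.5 CPM in mutant libraries and 33.1 and 30 CPM in wild-type libraries. Its footprints were lower, at 33.2 and 26.1 CPM in mutant libraries and 46 and 42.1 CPM in wild-type libraries, from 32 and 16 counts in mutant libraries and 73 and 82 counts in wild-type libraries. The interaction was -0.98 for CENPK (SE 0.25, edgeR adjusted p = 0.0093) and -0.54 for SPC24 (SE 0.15, edgeR adjusted p = 0.017), both log2. Taken alone, the CENPK footprint difference missed the threshold (log2 fold change -0.52, edgeR adjusted p = 0.072) and its mRNA rise passed (0.46, adjusted p = 0.0013), though not when wild-type mRNA replicate 2 was left out (0.073). The interaction of CENPK missed the threshold without mutant footprint replicate 1 (0.062) or 2 (0.098), and that of SPC24 without mutant footprint replicate 1 (0.27), wild-type footprint replicate 2 (0.12) or mutant mRNA replicate 1 (0.06). Of the other 48 members, CDK1 had a log2 difference of -0.005 with an interval of -0.20 to 0.19. CCNA2 had the highest, 0.30 (interval 0.095 to 0.50), which missed the threshold (edgeR adjusted p = 0.078).

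Within a genotype, the members were called above and below the average gene in footprints per mRNA about as often as all genes. In mutant libraries 13 members were above and 18 below, where 30.3% and 29.0% of all genes were; in wild-type libraries 19 were above and 14 below, where 36.2% and 34.1% were. BIRC5 was highest, at a log2 ratio of 1.15 in the mutant and 1.46 in the wild type, with CCNB1 at 0.88 and 1.00 and CDK1 at 0.91 and 0.91. MKI67 was lowest, at -2.29 in the mutant and -2.26 in the wild type, followed by CCDC18 at -1.90 and -1.52. The CCDC18 ratio rests on few footprint counts, 8 and 6 in mutant libraries and 11 and 12 in wild-type libraries. By role, the median was 0.37 in the mutant and 0.18 in the wild type for entry genes, and -0.79 and -0.68 for spindle motors and pole proteins. The counted feature is not given in the sources used here, so a transcript's untranslated length may enter this ratio.

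**Figure D4:**
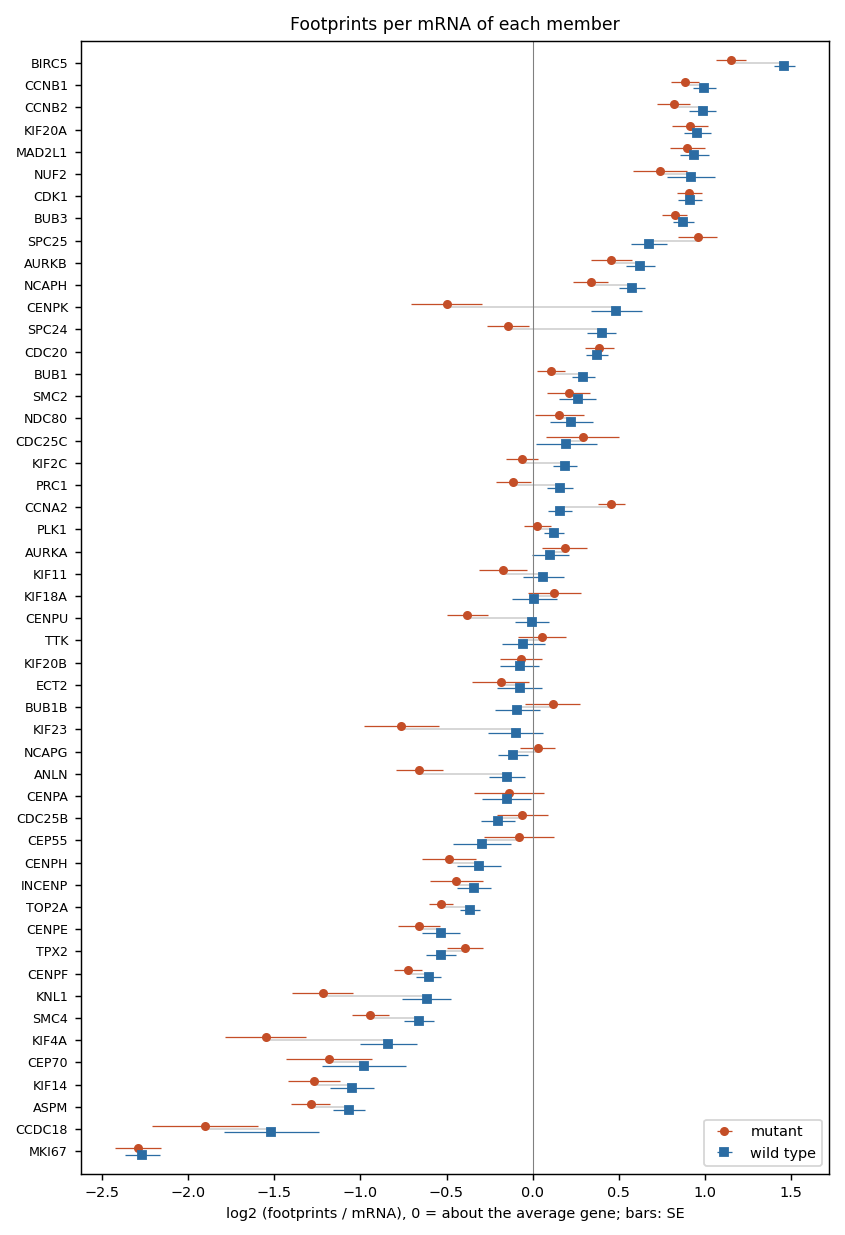
Log2 ratio of footprints to mRNA for each tested member in mutant (orange circles, upper of each pair) and wild-type libraries (blue squares), with bars for the SE and a grey line joining the genotypes; 0 is about the average gene. The order from BIRC5 at the top to MKI67 at the bottom is much the same in both genotypes, and CENPK and SPC24 have circles well left of their squares.

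Over all genes, mRNA differences went with how densely genes are packed around them. The fitted trend stood at a log2 fold change of 0.17 where 5 protein-coding genes were centred within 500 kb and -0.19 where 36 were. These counts include the gene itself where it is protein-coding. Members with higher mRNA had a median count of 8, members with lower mRNA 21, members not called 16, and all tested genes 13. With the trend removed, 24 members rose and 3 fell in mRNA, where 13.6% of all genes rose and 13.7% fell, and the median member log2 fold change was 0.23. CDK1 was still higher, at 0.47 in mRNA and 0.48 in footprints, whereas 12 mRNA calls were lost. These were AURKB (log2 fold change -0.02), BUB1 (0.08), MAD2L1 (0.08), CCNA2 (0.12), CCNB1 (0.13), CCNB2 (0.05), BUB3 (0.12), AURKA (0.12), ANLN (0.16), ECT2 (0.12), KIF18A (0.12) and KIF23 (0.25). SPC24 mRNA gained a call, at 0.26 (edgeR adjusted p = 0.0033). In footprints 9 members rose and 3 fell with the trend removed, where 7.94% and 8.88% of all genes did; the rises of CENPF, NUF2 and SMC2 and the falls of AURKB, INCENP and SPC24 lost their calls there, BIRC5 and PLK1 kept theirs, and TOP2A and TPX2 (higher) and CENPK (lower) gained one. CENPK and SPC24 kept theirs in footprints per mRNA.

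**Figure D5:**
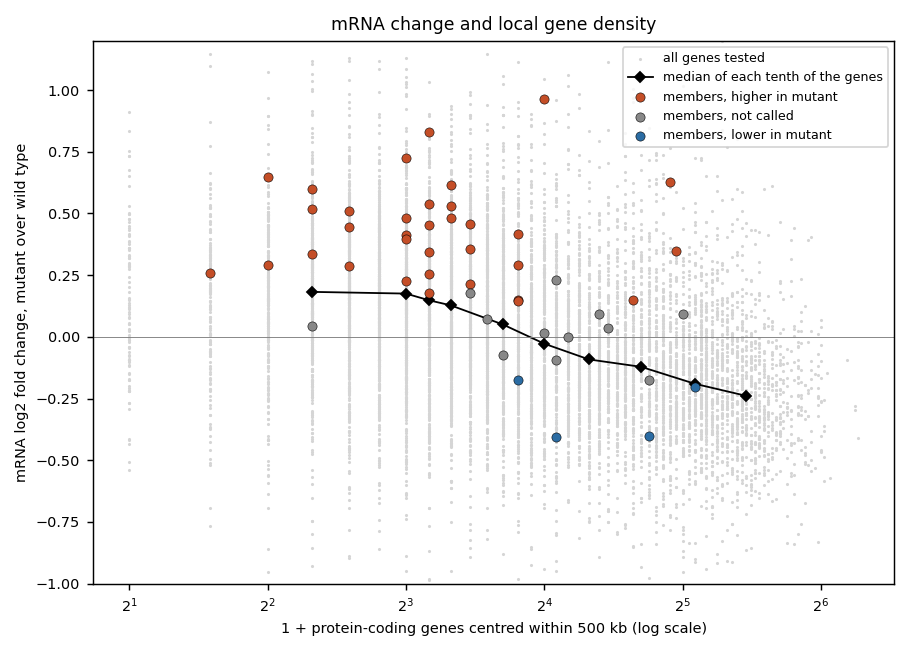
mRNA log2 fold change, mutant over wild type, against 1 plus the number of protein-coding genes centred within 500 kb (log axis); grey points are all tested genes within the axes, black diamonds are medians of equal-sized bins of the genes, and coloured points are members that rose (orange), were not called (grey) or fell (blue). The diamonds slope downward, and most orange points lie above them at the left.

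The calls depend on how much spread between cultures is assumed. The estimated biological coefficient of variation was 2.25% in mRNA and 1.92% in footprints. With 10% assumed in its place, 10 members rose in mRNA (CDK1, CENPE, CENPF, NUF2, KNL1, KIF11, CEP70, CCDC18, KIF20B and KIF14), where 1.65% of all genes did, and 3 rose in footprints (CDK1, CCNA2 and SPC25), where 1.35% did, with 0 lower in either.

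Other genes of the same machinery were read from 8 lists, which share no gene with the members. These lists were also chosen with earlier results of these data known. Their counts stand beside the same shares of all genes: 18.9% higher and 18.9% lower in mRNA, and 10.3% higher and 10.9% lower in footprints. Of 17 cohesin and sister separation genes, 13 rose and 3 fell in mRNA, the falls near the share of all genes, and 4 rose and 0 fell in footprints. STAG2, a cohesin subunit, rose in both, with mRNA at 284 and 259 CPM in mutant libraries and 185 and 179.9 CPM in wild-type libraries and a log2 fold change of 0.58 (SE 0.057, edgeR adjusted p = 1.5e-21). Of 27 further kinetochore genes 11 rose and 1 fell in mRNA. In footprints 3 of the 27 rose and 1 fell, the rises near the share of all genes. SKA1, of the SKA complex that works beside NDC80, had footprints at 71.7 and 60.3 CPM in mutant libraries and 30.9 and 29.8 CPM in wild-type libraries, a log2 fold change of 1.15 (SE 0.19, edgeR adjusted p = 9.2e-07), and its footprints per mRNA rose by 0.77 (edgeR adjusted p = 0.027). In footprints per mRNA, 1 of these 27 genes rose and 1 fell, where 1.78% and 2.37% of all genes did. The gene that fell was NSL1 (log2 difference -0.55, SE 0.17, edgeR adjusted p = 0.045). How these calls fare with a library left out is not given here.

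Of 33 centrosome and centriole genes 14 rose and 2 fell in mRNA, and 5 rose in footprints with 0 lower. HAUS1, of the augmin complex that seeds microtubules on microtubules, had lower footprints per mRNA (log2 difference -1.18, SE 0.27, edgeR adjusted p = 0.0033). In footprints per mRNA 0 of the 33 rose and 2 fell, where 1.78% and 2.37% of all genes did. Among regulators, 6 rose and 3 fell in mRNA of 16 APC/C genes. The same counts were 5 and 3 of 16 genes that control transcription of mitotic genes. They were 5 and 2 of 16 genes of CDK1 inhibitory kinases and phosphatase control. The falls in these lists were no more frequent than the 18.9% over all genes. MYBL2, the B-MYB subunit of the MMB complex, fell in mRNA by 0.24 on the log2 scale (SE 0.051, edgeR adjusted p = 3.3e-05), at 269 and 273 CPM in mutant libraries and 322 and 318 CPM in wild-type libraries. UBE2S, an APC/C ubiquitin-conjugating enzyme, fell in mRNA (log2 fold change -0.36, edgeR adjusted p = 1.2e-08) and in footprints (-0.58, edgeR adjusted p = 0.00019). Further motors and spindle genes had 6 higher and 3 lower of 20 in mRNA, and 3 higher and 0 lower of 20 in footprints. Further condensin and chromosome periphery genes had 3 higher and 2 lower of 8, where 18.9% of all genes rose and 18.9% fell.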

How the data were processed

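The deposited values are whole-number read counts per Ensembl gene, 1 library per file, not normalized by the authors. Per the submitters' processing notes, featureCounts, STAR, Bowtie2, Trimmomatic and cutadapt were used with build GRCh38 (hg38). The sources used here do not give each tool's role, the strand setting, the counted feature or the annotation release. Per the labels' protocols, mRNA was copied with oligo(dT), and footprints were made with RNase I, size selection and ribosomal RNA depletion. Of 20453 gene IDs, 20407 matched a symbol. Overlapping genes and antisense partners cannot be told apart.

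Counts were tested with edgeR 4.0.16 (R 4.3.3; glmQLFit with legacy set to FALSE, glmQLFTest), with TMM factors within each assay, filterByExpr by genotype, and Benjamini-Hochberg adjustment over all genes tested. CPM values use the TMM-scaled library sizes, except that the levels of 3 counts use unscaled totals. Intervals are 95% and include the spread between the 2 libraries; floors of 3 counts cover counting error only, since reads lack molecular identifiers and are not independent molecules. Same-numbered mutant and wild-type libraries of an assay did not deviate together. Alternatives were RLE factors, no filter, DESeq2 1.42.0, an assumed coefficient of variation of 10%, a replicate block, removal of the gene density trend (loess, span 0.5), and each library left out. The tests were checked on simulated data. Members and lists were chosen with earlier results of these data known. Library values were given by rule for members called in footprints per mRNA, up to 8 called in footprints and the 12 in mRNA with the smallest p, every member called lower, and the most abundant member of each role; further genes got up to 2 called per list. Other members named with values were chosen after their values were seen.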

Additional observations from a re-analysis of the deposited data

Results flagged for a closer look

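The members CENPK and SPC24 had genotype differences that were not the same in mRNA and in footprints by the test of that difference itself, the edgeR interaction of genotype and assay. CENPK had an interaction of -0.98 on the log2 scale, with mRNA higher and footprints lower in mutant than in wild-type libraries. SPC24 had an interaction of -0.54, with overlapping mRNA groups and lower footprints in mutant libraries. Neither call was kept with every library left out in turn.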

How the results depend on the processing

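No member's called log2 fold change turned sign under any alternative run. With DESeq2, 22 members rose and 2 fell in mRNA, 3 rose and 1 fell in footprints, and 0 fell in footprints per mRNA; over all genes these were 676 and 798, 133 and 264, and 92. With an assumed coefficient of variation of 10%, 10 rose and 0 fell in mRNA, 3 rose and 0 fell in footprints, and 0 fell in footprints per mRNA; over all genes these were 178 and 135, 124 and 164, and 10. With the density trend removed, 3 fell in footprints. With a library left out, members that rose numbered 23 to 31 in mRNA and 2 to 11 in footprints, and members that fell numbered 3 to 4 in mRNA, 0 to 5 in footprints and 0 to 3 in footprints per mRNA. Over all genes the ranges were 1120 to 1953 and 101 to 836 higher, and 1160 to 1885, 173 to 963 and 97 to 251 lower. Of the 38 mRNA calls 23 were kept with each library left out and 9 under all alternatives; of 15 footprint calls, 2 and 2; of 2 calls in footprints per mRNA, 0 and 0. The cause of these losses was not tested.

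The replicate numbers did not pair the libraries: deviations of same-numbered libraries correlated at 0.0551 over 8707 genes in mRNA and 0.0881 over 5254 genes in footprints, both under 0.1. With the replicate block, 34 members rose and 4 fell in mRNA, 10 rose and 6 fell in footprints, and 3 fell in footprints per mRNA. The mutant footprint libraries were the shallowest, at 944824 and 603360 counts.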
